A study of Mus musculus with 18 samples.

Results

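The genes described here are Trp53, which encodes the transcription factor p53, and 9 genes widely known as its direct targets: Cdkn1a, Mdm2, Ccng1, Btg2, Pmaip1, Bbc3, Bax, Phlda3 and Zmat3. They were chosen by symbol and are 10 of the 54354 rows of a mouse gene count table, read across 10 libraries from a serine-free diet. The libraries are poly(A)-selected, strand-specific RNA sequencing libraries. Of these, 5 come from a serine-free control diet (SF_CD) and 5 from a serine-free high fat diet (SF_HFD), and both groups carry the labels colon, tumor and wild type. The labels do not say whether the tumor cells carry an altered Trp53 allele. The extraction protocol names organoids, whereas the design text of the series describes sorted live cells, and neither the age of animals nor which library came from which animal is given. The other 8 libraries of the series, 3 from a control diet and 5 from a high fat diet, neither labelled serine-free, were not used. In those columns 7 of the 10 rows were at 0 counts in all 8 libraries, so the row labels were not taken to name the genes counted there.

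p53 is kept low in unstressed cells by the ubiquitin ligase MDM2 and accumulates after DNA damage, ribosomal stress or oncogene activation. It then binds paired half-sites in DNA and raises the transcription of genes that halt the cell cycle, repair DNA or start apoptosis, and of Mdm2 itself, which closes a feedback loop. Inactivation of p53 is a common late step in the growth of colorectal tumors.

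Promoter windows were read to show where the letters of a p53 half-site lie near the starts of these genes. RefSeq windows (GRCm38.p6, the build also called mm10) run from 250 bases before to 50 bases after a start, and 8 of the 10 genes had 11 of them. They were searched on both strands for exact matches to the p53 half-site consensus, 10 bases long, and for 2 such half-sites side by side with at most 2 mismatches over 20 bases and the C and G of each core kept. The 2 upstream stretches that hold a paired site are printed with the matches in capitals, and that of Mdm2 is shown for the gene of the feedback loop. Each is given 5′ to 3′ on the strand of the gene.

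Cdkn1a, upstream of the first start, chr17:29090729-29090978, plus strand: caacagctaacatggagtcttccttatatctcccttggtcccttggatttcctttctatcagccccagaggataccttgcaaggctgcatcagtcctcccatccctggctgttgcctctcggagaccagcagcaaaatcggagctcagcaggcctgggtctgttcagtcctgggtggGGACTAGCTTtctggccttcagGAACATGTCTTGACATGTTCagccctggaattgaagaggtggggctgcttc

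Ccng1, chr11:40755287-40755536, minus strand: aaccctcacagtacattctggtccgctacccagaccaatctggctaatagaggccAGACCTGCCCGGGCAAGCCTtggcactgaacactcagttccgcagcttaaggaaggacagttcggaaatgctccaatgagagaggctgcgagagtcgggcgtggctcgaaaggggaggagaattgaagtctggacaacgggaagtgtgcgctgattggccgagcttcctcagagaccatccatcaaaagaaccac

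Mdm2, chr10:117710759-117711008, minus strand: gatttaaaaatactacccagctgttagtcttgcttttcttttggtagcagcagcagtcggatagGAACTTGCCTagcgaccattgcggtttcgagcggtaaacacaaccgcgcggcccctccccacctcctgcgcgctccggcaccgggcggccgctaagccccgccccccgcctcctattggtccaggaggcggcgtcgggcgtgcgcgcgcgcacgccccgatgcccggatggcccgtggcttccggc

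The paired site of Cdkn1a, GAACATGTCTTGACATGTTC, begins 51 bases before the first of its 2 annotated starts and has 1 mismatch to the consensus. A further half-site, GGACTAGCTT, begins 73 bases before that start, and the window of the second start had no match. In Ccng1 the paired site, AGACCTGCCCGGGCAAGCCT, also has 1 mismatch and begins 195 bases before the start. Single half-sites were found in the windows of Mdm2 (GAACTTGCCT, 186 bases before the start), Bax (AGGCAAGCTT, 201 bases) and Trp53 (GGACTTGCCC, 75 bases). The windows of Btg2, Bbc3 and Phlda3 had none. The exact half-sites GAACATGTCT and GGGCAAGCCT lie within the paired sites of Cdkn1a and Ccng1. In all, 5 of the 11 windows held a half-site and 2 a paired site. Over all 32851 windows of the table, 8.36% held a half-site and 0.326% a paired site. These are matches of letters in short windows and do not show binding. Sequence outside the windows was not searched, so the half-site of Mdm2 is not taken as the site of its feedback loop.

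Library depth and content differed within the groups. The SF_CD libraries held 499774 to 12841275 counts and the SF_HFD libraries 727610 to 12146933, and 3 libraries, SF_CD 1, SF_CD 5 and SF_HFD 5, had under 1000000. Ribosomal RNA took 21.99% of SF_CD 1 and 14.5% of SF_CD 5, against 2.08% to 7.19% of the other 8 libraries. Malat1, a nuclear RNA, made up 12.1% of SF_CD 1 and at most 1.66% elsewhere. All 14 epithelial markers had counts, with a summed level of 2861 to 6964 counts per 1000000 (CPM) in SF_CD and 5318 to 11929 CPM in SF_HFD. Among smooth muscle markers, which sum 9 genes, the range was 3.49 to 24.7 CPM in SF_CD and 169 to 257 CPM in SF_HFD, and 3 of 6 tested were called higher. Among 12 immune markers Cd3e, Ms4a1 and Cpa3 were at 0 in all 10 libraries, and the sum was 34.1 to 112 CPM in SF_CD and 18.4 to 48.4 CPM in SF_HFD. The sum of 8 fibroblast markers was 12.2 to 94.6 CPM in SF_CD and 68.2 to 136 CPM in SF_HFD. That of 6 endothelial markers was 4.07 to 33.7 CPM and 1.26 to 4.29 CPM, and that of 8 goblet and enteroendocrine markers 57.6 to 260.0 CPM and 60.5 to 330.3 CPM. Agr2 made up most of the last sum. The goblet genes Muc2 and Zg16 were called lower, with 94 and 309 counts in SF_CD and 1 each in SF_HFD (edgeR adjusted p = 0.00170 and 0.000156). They are 2 of 5 goblet and enteroendocrine markers tested. Of these 5, 4 had negative log2 fold changes. Agr2, the other, was not called, at a mean of 94.2 CPM in SF_CD and 151 CPM in SF_HFD (log2 fold change 0.68). The immune gene Fcer1g was also called lower, 1 of 4 immune markers tested. Of these 4, 3 had negative log2 fold changes. The other, S100a8, was not called, with 117 counts in SF_CD and 590 in SF_HFD. The fibroblast gene Postn was called higher, 1 of 6 fibroblast markers tested. All 6 had positive log2 fold changes, from 0.0053 (Col3a1) to 3.84 (Postn). Over all 11780 genes tested, edgeR called 0.153% as higher and 0.170% as lower in SF_HFD. The part of these markers in the results was not tested.

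None of the 9 genes that could be tested differed between SF_HFD and SF_CD at an adjusted p under 0.05. The whole table was tested by edgeR (quasi-likelihood), with Benjamini-Hochberg adjustment over 11780 genes, of which 0.323% were called, 0.153% as higher and 0.170% as lower in SF_HFD. Bbc3 had too few counts to be tested. At an unadjusted p under 0.05, 5 of the 9 passed, against 11.6% of all genes tested. Of these, Ccng1, Phlda3 and Trp53 had higher means in SF_HFD, and Btg2 and Cdkn1a had lower means. DESeq2 called 1 of the 9, Btg2 (2.53% of all genes), and limma-voom called 0 (1.43%). The median log2 fold change of the 9 was -0.04, with 4 positive and 5 negative, beside 0.02 over all genes tested. Without the 3 libraries under 1000000 counts it was 0.32, beside 0.04, and edgeR again called 0 of the 9. In simulated counts of 11461 genes, changes were placed in a sample of genes above a minimum mean count. This comparison recovered 38% of the 4-fold changes and 1% of the 2-fold changes, so changes of such sizes can be missed. Genes with fewer counts were not covered. In RNA from a mixture of cells, fewer cells of a type and less RNA per cell cannot be told apart.

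**Figure D1:**
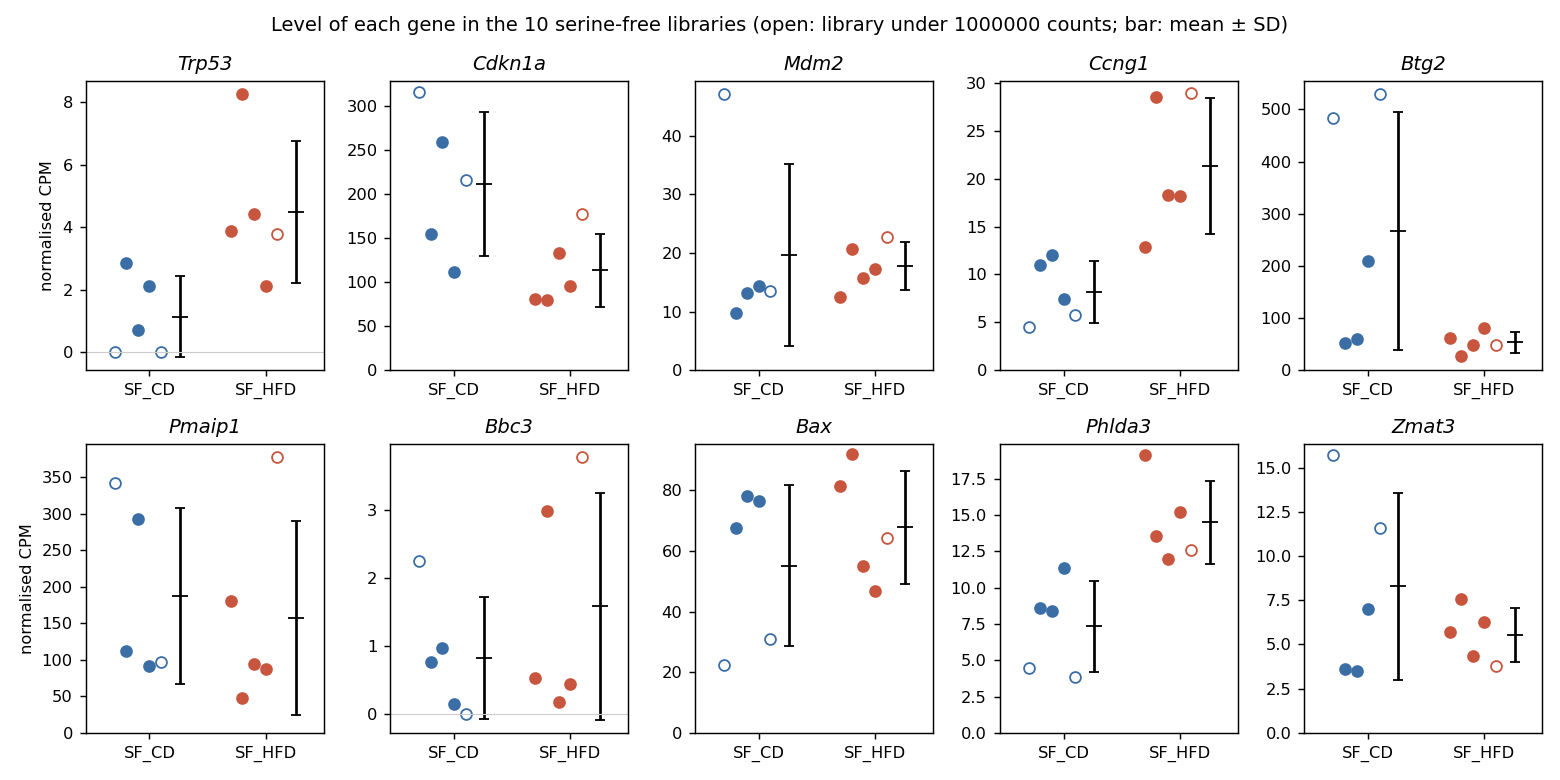
Level of each of the 10 genes in TMM-normalised CPM (linear axes from 0) in the 5 SF_CD (blue) and 5 SF_HFD (red) libraries, ordered by library number within a group, with the mean and SD beside them; open circles are the 3 libraries under 1000000 counts. Ccng1 and Phlda3 are the 2 genes whose groups do not overlap, and the SF_CD libraries of Btg2 spread from 52.1 to 529 CPM.

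Trp53 itself was measured at a low level. The gene (ENSMUSG00000059552, mm10 chromosome 11, 69580359 to 69591873) was at 0, 2.86, 0.699, 2.11 and 0 CPM in the SF_CD libraries 1 to 5. In the SF_HFD libraries 1 to 5 it was at 3.88, 8.27, 4.42, 2.11 and 3.78 CPM. The groups overlapped, since SF_CD 2 lay above SF_HFD 4. The 2 libraries at 0 are the shallow SF_CD 1 and SF_CD 5, where 3 counts would be 6.73 and 5.79 CPM, so their zeros do not set them apart from the SF_HFD libraries. SF_HFD averaged 4.49 ± 2.28 CPM against 1.13 ± 1.29 CPM for SF_CD (SD over 5 libraries each). The log2 fold change was 1.47 ± 0.65 (SE, edgeR adjusted p = 0.390). Leaving out SF_CD 2 lowered the mean of its group to 0.703 CPM. In the libraries over 1000000 counts the means were 4.67 ± 2.59 CPM (n = 4) and 1.89 ± 1.096 CPM (n = 3). Trp53 had 59 counts over the SF_CD libraries and 158 over the SF_HFD libraries. The processed copy Trp53-ps, with which part of its sequence is shared, had 0 counts, and 10.1% of the 31-base words of Trp53 transcripts occur in transcripts of other genes. Counts per gene do not show from which exons of Trp53 the reads came.

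Mdm2, the ubiquitin ligase that marks p53 for destruction (ENSMUSG00000020184, chromosome 10, 117688875 to 117710758), had 1 high library and no difference past the test. The SF_CD libraries 1 to 5 were at 47.1, 9.67, 13.1, 14.3 and 13.5 CPM. The SF_HFD libraries 1 to 5 were at 12.5, 20.7, 15.7, 17.3 and 22.7 CPM. SF_CD 1, at 21 counts and an exact 95% Poisson interval for counting error of 29.2 to 72.0 CPM, stood above all 9 others. For Mdm2 the log2 fold change was -0.04 ± 0.45 (95% interval -0.999 to 0.92, edgeR adjusted p = 0.984). Without SF_CD 1 it was 0.47 (edgeR adjusted p = 0.557), and the SF_CD mean moved from 19.6 to 12.7 CPM. The sign of the difference thus changed when this library was left out.

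Cdkn1a and Btg2, which slow the cell cycle, had lower means in SF_HFD, and the cyclin gene Ccng1 had a higher mean. Cdkn1a encodes p21, the inhibitor of cyclin-dependent kinases through which p53 arrests cells (ENSMUSG00000023067, chromosome 17, 29090976 to 29100727). It was at 316, 155, 259, 111 and 216 CPM in the SF_CD libraries 1 to 5. In the SF_HFD libraries 1 to 5 it was at 81.4, 80.1, 133, 95.2 and 178 CPM. The lowest SF_CD library lay above 3 of the 5 SF_HFD libraries, and the groups overlapped. SF_CD averaged 212 ± 81.4 CPM against 113 ± 41.7 CPM for SF_HFD (SD over 5 libraries each). The log2 fold change was -0.90 ± 0.37 (95% interval -1.67 to -0.13, edgeR adjusted p = 0.348). It was -0.85 (edgeR adjusted p = 0.237) without the 3 libraries under 1000000 counts.

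Btg2 is an antiproliferative gene that p53 activates and that growth factors also induce quickly (ENSMUSG00000020423, chromosome 1, 134075170 to 134079120). It had the largest log2 fold change of the 9 genes with edgeR on all 10 libraries, but not without the 3 shallow libraries or with limma-voom, where that of Trp53 was larger (1.26 and 1.16). The SF_CD libraries 1 to 5 were at 483, 52.1, 59.8, 210.0 and 529 CPM. The SF_HFD libraries 1 to 5 were at 61.1, 26.6, 49.1, 80.1 and 49.1 CPM. SF_CD 1, 4 and 5 lay above all SF_HFD libraries, while SF_CD 2 and 3 lay within their range. SF_CD 1 and 5, the highest, are the libraries with 21.99% and 14.5% ribosomal RNA, and SF_CD 4 had 2.40%. SF_CD averaged 267 ± 228 CPM against 53.2 ± 19.5 CPM for SF_HFD (SD over 5 libraries each). The log2 fold change was -2.31 ± 0.60 (95% interval -3.57 to -1.05, edgeR adjusted p = 0.132). DESeq2 gave -2.47 with an adjusted p of 0.00722. edgeR called it without SF_CD 2 (adjusted p = 0.0323) or SF_CD 3 (adjusted p = 0.0459), the lowest libraries of that group. Without the 3 libraries under 1000000 counts the log2 fold change was -0.97 (edgeR adjusted p = 0.384), with means of 107 ± 89.1 CPM (SF_CD, n = 3) and 54.2 ± 22.4 CPM (SF_HFD, n = 4). With limma-voom, which gives less weight to variable libraries, it was -0.62 (adjusted p = 0.467).

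Ccng1 encodes cyclin G1, a p53 target that recruits a phosphatase to MDM2 (ENSMUSG00000020326, chromosome 11, 40748552 to 40755311). It was at 4.49, 10.99, 12.0, 7.40 and 5.79 CPM in the SF_CD libraries 1 to 5. In the SF_HFD libraries 1 to 5 it was at 12.82, 28.5, 18.3, 18.2 and 29.0 CPM. Every SF_HFD library lay above every SF_CD library, by a small margin between SF_CD 3 and SF_HFD 1. SF_CD 1 and 5 held 2 and 3 counts, with exact 95% Poisson intervals that reach 16.2 and 16.9 CPM. SF_HFD averaged 21.3 ± 7.09 CPM against 8.14 ± 3.26 CPM for SF_CD (SD over 5 libraries each). That is a log2 fold change of 1.26 ± 0.40 (95% interval 0.40 to 2.11, edgeR adjusted p = 0.230). It lay between 0.84 and 1.43 in 18 other settings, none of which called it. Without the 3 libraries under 1000000 counts it was 0.93 (edgeR adjusted p = 0.237).

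No gene of the mitochondrial path to apoptosis passed the test. Bax, the effector that opens the outer mitochondrial membrane (ENSMUSG00000003873, chromosome 7, 45461697 to 45466898), was at 22.4, 67.7, 78.3, 76.4 and 30.9 CPM in the SF_CD libraries 1 to 5. In the SF_HFD libraries 1 to 5 it was at 81.5, 91.8, 54.9, 46.6 and 64.2 CPM. The 2 lowest values were those of SF_CD 1 and 5, which rest on 10 and 16 counts, and the other 8 libraries lay between 46.6 and 91.8 CPM. On the log2 scale the fold change was 0.26 ± 0.38 (95% interval -0.56 to 1.07, edgeR adjusted p = 0.851), and -0.11 without the 3 libraries under 1000000 counts. Of the 31-base words of Bax transcripts, 11.1% occur in transcripts of other genes.

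Pmaip1 encodes NOXA, a small protein that blocks survival members of the BCL-2 family (ENSMUSG00000024521, chromosome 18, 66458533 to 66465565). It was at 341, 112, 293, 91.1 and 96.6 CPM in the SF_CD libraries 1 to 5. In the SF_HFD libraries 1 to 5 it was at 181, 47.1, 94.2, 87.3 and 378 CPM. Both groups held high and low libraries, with an 8.03-fold range within SF_HFD and a 3.75-fold range within SF_CD. Between the diets the log2 fold change was -0.25 ± 0.54 (95% interval -1.40 to 0.89, edgeR adjusted p = 0.903). It was 0.06 without SF_CD 1 and -0.86 without SF_HFD 5, where the SF_HFD mean moved from 157 to 102.4 CPM. Bbc3, which encodes PUMA, another such protein (ENSMUSG00000002083, chromosome 7, 16308393 to 16318205), had 17 counts in all SF_CD libraries and 30 in all SF_HFD libraries. Its levels were 0 to 2.24 CPM in SF_CD and 0.184 to 3.78 CPM in SF_HFD. In an edgeR fit without the filter on low counts its log2 fold change was 0.92 ± 1.03 (adjusted p = 0.680).

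Phlda3 and Zmat3 act outside these paths. Phlda3 encodes a small lipid-binding protein that holds back AKT signalling (ENSMUSG00000041801, chromosome 1, 135766119 to 135769136). It was at 4.49, 8.57, 8.38, 11.3 and 3.86 CPM in the SF_CD libraries 1 to 5. In the SF_HFD libraries 1 to 5 it was at 19.1, 13.5, 12.0, 15.2 and 12.6 CPM. The groups did not overlap, and the nearest libraries were SF_CD 4 and SF_HFD 3. SF_CD 1 and 5 held 2 counts each, with exact 95% Poisson intervals that reach 16.2 and 14.0 CPM. SF_HFD averaged 14.5 ± 2.86 CPM against 7.33 ± 3.11 CPM for SF_CD (SD over 5 libraries each). The log2 fold change was 0.86 ± 0.39 (95% interval 0.02 to 1.69, edgeR adjusted p = 0.409). It was 0.67 without the 3 libraries under 1000000 counts. Zmat3, an RNA-binding zinc finger protein that controls splicing (ENSMUSG00000027663, chromosome 3, 32334792 to 32366014), was at 3.49 to 15.7 CPM in SF_CD (median 7.02) and at 3.78 to 7.58 CPM in SF_HFD (median 5.69). Its 2 highest values, in SF_CD 1 and 5, rest on 7 and 6 counts. For Zmat3 the log2 fold change was -0.34 ± 0.52 (edgeR adjusted p = 0.855) and 0.32 without the 3 libraries under 1000000 counts.

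Groups that do not overlap were found for Ccng1 and Phlda3, 2 of the 9 genes tested, both higher in SF_HFD. Over all genes tested this held for 3.67%, and for 2.25% in that direction and 1.42% in the other. In the 7 libraries over 1000000 counts these 2 genes cannot overlap either, since those libraries are among the 10. No further gene of the 9 separated there. Over all genes tested, groups of these 7 libraries did not overlap for 19.0%, or 9.50% in that direction. The smooth muscle markers, at most 24.7 CPM in SF_CD and at least 169 CPM in SF_HFD in sum, also separated the groups, and their part in these 2 genes was not tested.

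**Figure D2:**
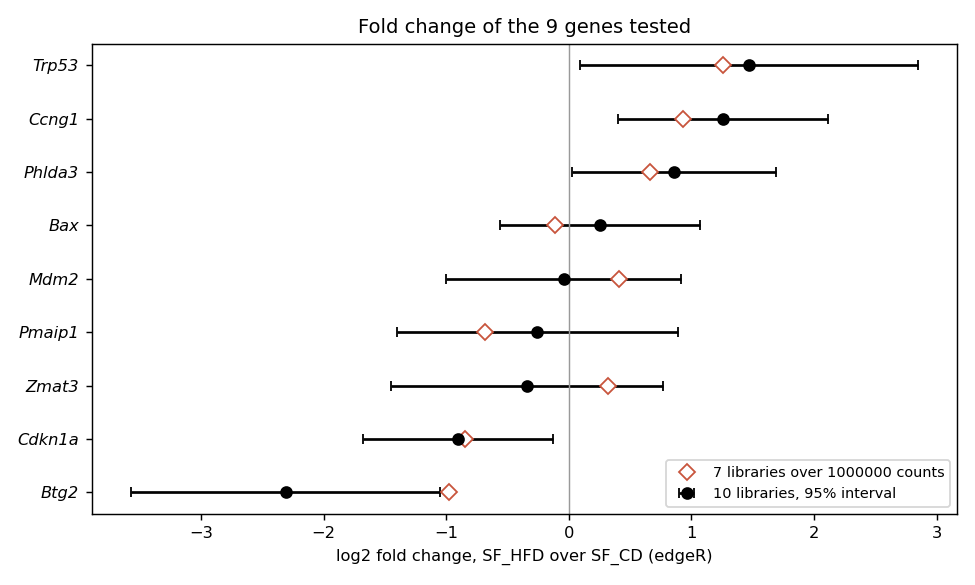
Log2 fold change of the 9 genes tested, SF_HFD over SF_CD, by edgeR: black points and bars are the values and 95% intervals of all 10 libraries, open diamonds the values of the 7 libraries over 1000000 counts. Btg2 moves from -2.31 to -0.97 between them, and Bax, Mdm2 and Zmat3 change sign.

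Per length, the 10 genes lay in 3 ranges. CPM per kilobase of annotated exon were compared over all 10 libraries, since raw counts grow with transcript length. Pmaip1 (63.0 ± 44.1 CPM per kilobase), Btg2 (58.3 ± 69.1), Cdkn1a (45.7 ± 22.5) and Bax (39.0 ± 14.3) lay above 92.5%, 92.1%, 90.5% and 89.3% of genes tested. Their ranges of mean ± SD over the 10 libraries, with both diets pooled, overlapped. Differences between these genes were not tested. Phlda3 (6.997 ± 3.02 CPM per kilobase), Ccng1 (4.197 ± 2.47) and Mdm2 (3.67 ± 2.11) lay above 65.7%, 54.2% and 50.5% of genes tested, whose median was 3.60 CPM per kilobase. Trp53 (0.695 ± 0.615 CPM per kilobase), Zmat3 (0.604 ± 0.346) and Bbc3 (0.569 ± 0.622) were above only 11.9%, 9.72% and 8.81% of genes tested. Exon length was the union over annotated transcripts, which understates the level of a gene where mostly shorter forms are used.

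**Figure D3:**
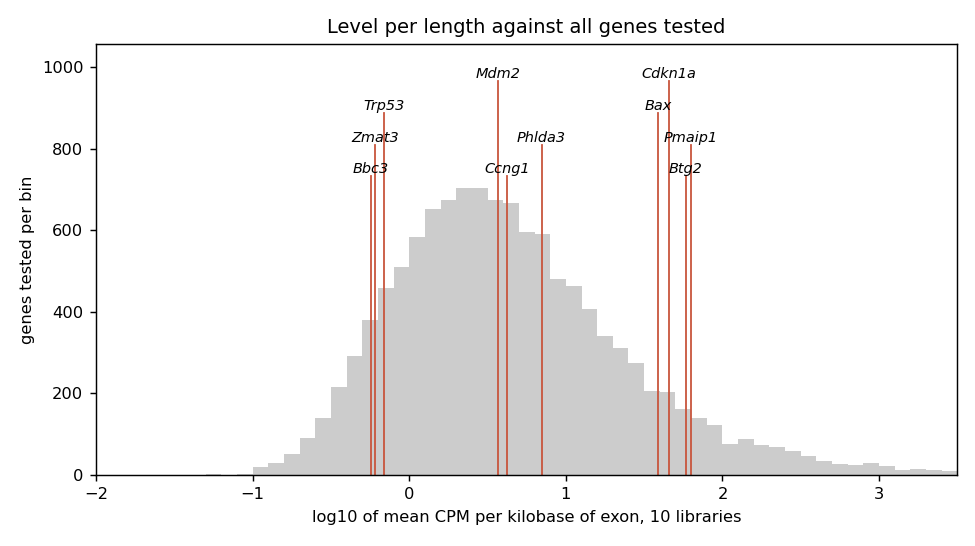
Mean level per kilobase of exon over 10 libraries (log10 axis), with grey bars for the 11754 genes tested that have an annotated length and a red line for each of the 10 genes. Pmaip1, Btg2, Cdkn1a and Bax lie in the upper tail, Trp53, Zmat3 and Bbc3 in the lower.

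The genes did not share 1 pattern over the libraries. For the 8 genes with a count in every library, SF_CD 1 was the highest for Cdkn1a, Mdm2 and Zmat3 and the lowest for Ccng1 and Bax. SF_HFD 2 was the lowest for Cdkn1a, Btg2 and Pmaip1 and the highest for Bax. The likeness of 2 genes was measured as the root mean square difference of their log2 CPM, each centred on its mean over the 10 libraries. The nearest pair was Bax and Phlda3 (0.46), followed by Ccng1 and Phlda3 (0.56) and Mdm2 and Zmat3 (0.57). Trp53 and Btg2 were the farthest apart (2.92), the first at 0 and the second at its highest in SF_CD 1 and 5. For Cdkn1a the nearest of these genes was Pmaip1 (0.71), but 13.4% of 7275 genes with at least 10 CPM were nearer to it, and the median over those genes was 1.0025. The genes most like Cdkn1a were Usp8 (0.23), Sash1 (0.30), Rassf9 (0.32), Septin10 (0.33) and Rsrc1 (0.34). These distances share the depth and content of the same 10 libraries.

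**Figure D4:**
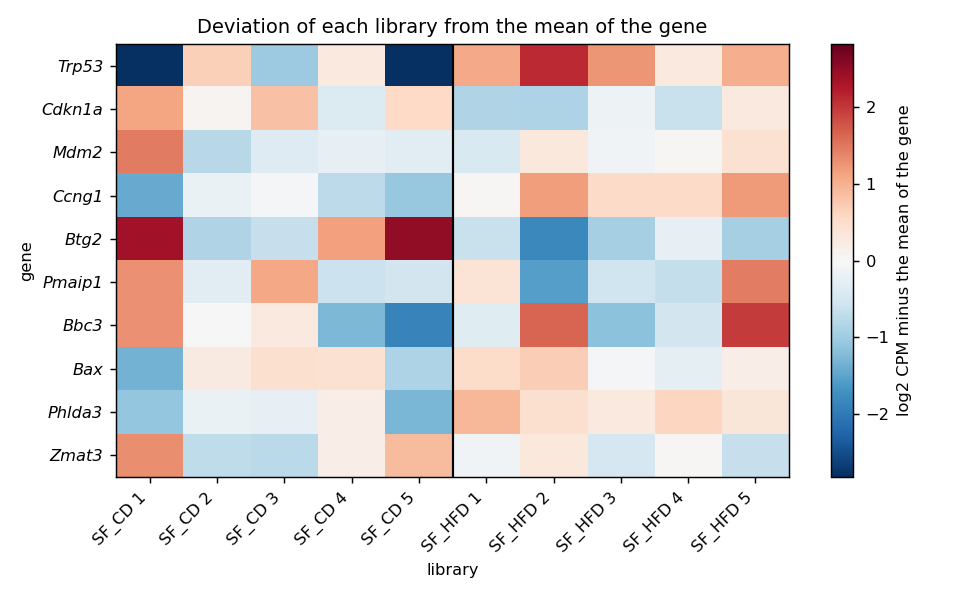
Log2 CPM (prior count 2) of each gene minus its mean over 10 libraries, with SF_CD left and SF_HFD right of the line; red is above and blue below the mean. Btg2 is highest in SF_CD 1 and 5, where Trp53 is at 0, and Ccng1 and Phlda3 are lower throughout SF_CD than in SF_HFD.

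Of 44 further genes known as p53 targets, 35 were tested and 1 was called by edgeR. Of the 35, 21 had a positive and 14 a negative log2 fold change, the median was 0.23 (0.09 without the 3 shallow libraries), and 8 passed an unadjusted p under 0.05. DESeq2 and limma-voom called 1 each. Over all genes tested, edgeR called 0.323%, DESeq2 2.53% and limma-voom 1.43%, and 11.6% passed an unadjusted p under 0.05. The same shares apply to the lists that follow.

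Groups did not overlap for 3 of these 35 genes, with SF_HFD above SF_CD, against 3.67% of all genes tested, or 2.25% in that direction. Of the 3, Perp and Fas were singled out after their values were seen. Perp, a desmosome protein of epithelia, was at 25.5 to 112 CPM in SF_CD and 115 to 163 CPM in SF_HFD (log2 fold change 1.07 ± 0.43, edgeR adjusted p = 0.341). Fas, a death receptor, was at 0 to 0.879 CPM in SF_CD and 1.44 to 2.99 CPM in SF_HFD (log2 fold change 2.07 ± 0.67, edgeR adjusted p = 0.233). It was at 0 in the shallow SF_CD 1 and 5, where 3 counts would be 6.73 and 5.79 CPM. These zeros do not set them apart from the SF_HFD libraries. Fas had 14 counts over the SF_CD libraries and 69 over the SF_HFD libraries. Perp was called in 0 of 18 other settings and Fas in 0 of 17.

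Regulators of p53 showed no call. Of 24 genes, 21 were tested with edgeR and 0 called, with 1 at an unadjusted p under 0.05 and 0 by DESeq2 or limma-voom; 6 log2 fold changes were positive and 15 negative (median -0.22, and -0.01 without the 3 shallow libraries). The ribosomal proteins Rpl11 and Rpl5, which bind MDM2 when ribosome assembly fails, were at 2748 ± 982 CPM and 925 ± 122 CPM in SF_HFD. In SF_CD they were at 3138 ± 1846 CPM and 846 ± 400 CPM. The adapter Ywhaz averaged 536 ± 47.7 CPM for SF_HFD against 650 ± 237 CPM for SF_CD. Crebbp, an acetyltransferase that acts on p53, averaged 40.3 ± 16.6 CPM for SF_HFD against 106 ± 110 CPM for SF_CD, where the mean was 64.1 CPM without SF_CD 1. Crebbp was at 272 and 166 CPM in the shallow SF_CD 1 and 5, which carry its higher SF_CD mean. It was at 24.3 to 41.1 CPM in SF_CD 2 to 4 and 35.6 to 65.4 CPM in SF_HFD 1 to 4. Rpl5 was at 312 and 572 CPM in SF_CD 1 and 5. It was at 924 to 1277 CPM in SF_CD 2 to 4 and 932 to 1030 CPM in SF_HFD 1 to 4. For Ywhaz, in the same order, the values were 952 and 856, 439 to 539 and 482 to 598 CPM.

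Among partners of Bax and of the apoptosome edgeR made no call. Of 21 genes, 19 were tested and edgeR called 0, with 1 at an unadjusted p under 0.05 (11.6% of all genes tested). DESeq2 and limma-voom called 1 each, Bok (2.53% and 1.43% of all genes tested). The median log2 fold change was 0.17, and 0.21 without the 3 shallow libraries. Cytochrome c (Cycs) averaged 642 ± 108 CPM for SF_HFD against 564 ± 299 CPM for SF_CD. Diablo, an antagonist of caspase inhibitors, averaged, in the same order, 69.3 ± 19.95 CPM and 59.7 ± 40.1 CPM, and Bad 47.9 ± 15.7 CPM and 44.1 ± 12.3 CPM. Cycs was at 121 and 417 CPM in the shallow SF_CD 1 and 5, against 638 to 848 CPM in SF_CD 2 to 4. Diablo was at 15.7 and 21.2 CPM in SF_CD 1 and 5, against 64.9 to 99.0 CPM in SF_CD 2 to 4. SF_HFD 1 to 4 were at 483 to 787 CPM for Cycs and 35.8 to 87.9 CPM for Diablo. The higher SF_HFD means of Cycs and Diablo thus rest on SF_CD 1 and 5. Bok, a relative of Bax that also stands among the near relatives and was singled out after its values were seen, was at 35.95 to 55.2 CPM in SF_HFD and 4.49 to 23.6 CPM in SF_CD. The groups of Bok did not overlap, and its log2 fold change was 1.44 ± 0.38 (edgeR adjusted p = 0.144), called in 2 of 18 other settings.

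Partners and downstream genes of p21 did not pass the edgeR test. Of the 19 CDK inhibitors, cyclins and pocket proteins, all tested, edgeR called 0 with 0 at an unadjusted p under 0.05, and DESeq2 and limma-voom called 0. The median log2 fold change was -0.42, and -0.01 without the 3 shallow libraries. The cyclins Ccnd2 and Ccnd1 were at 481 ± 248 CPM and 221 ± 38.3 CPM in SF_HFD. In SF_CD they were at 646 ± 749 CPM and 347 ± 330 CPM, with means of 319 and 221 CPM without SF_CD 1. The kinase Cdk4 averaged 170 ± 29.3 CPM for SF_HFD against 232 ± 121 CPM for SF_CD. Cdk4 was at 56.1 and 176 CPM in the shallow SF_CD 1 and 5. At 261 to 373 CPM, SF_CD 2 to 4 lay above SF_HFD 1 to 4 (140 to 202 CPM). Its relative Cdk6 averaged 66.3 ± 20.2 CPM for SF_HFD against 129 ± 135 CPM for SF_CD (77.2 CPM without SF_CD 1). Cdk6 was at 334 and 201 CPM in the shallow SF_CD 1 and 5, and 34.2 to 38.6 CPM in SF_CD 2 to 4. SF_HFD 1 to 4 were above the latter, at 58.9 to 90.7 CPM. Ccnd1 was at 851 and 518 CPM in SF_CD 1 and 5, and 110 to 135 CPM in SF_CD 2 to 4. SF_HFD 1 to 4 were again above the latter, at 192 to 268 CPM. For Cdk6 and Ccnd1 the direction thus turned without the 3 shallow libraries, and for Cdk4 it did not.

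Of 22 cell cycle genes that p21 represses through the DREAM complex, all were tested and edgeR called 0. At an unadjusted p under 0.05, 4 passed, against 11.6% of all genes tested. DESeq2 called 2, Bub1b (log2 fold change -1.19, adjusted p = 0.0133) and Cenpf (-2.02, adjusted p = 0.0299), against 2.53% of all genes tested. With limma-voom 0 were called. Bub1b is named after its values were seen. The median log2 fold change was -0.29, and -0.67 without the 3 shallow libraries, with 15 negative and 7 positive values. Top2a, the topoisomerase of dividing cells, averaged 322 ± 188 CPM for SF_HFD against 672 ± 326 CPM for SF_CD, and the kinetochore gene Cenpf averaged 145 ± 79.6 CPM against 532 ± 445 CPM. Cenpf was at 830.5 and 1170.5 CPM in SF_CD 1 and 5, whereas SF_CD 2, 3 and 4 lay between 177 and 255 CPM. Without the 3 shallow libraries its log2 fold change went from -1.87 to -0.68, and that of Top2a from -1.06 to -0.50. Birc5 (survivin) averaged 198 ± 92.3 CPM for SF_HFD against 234 ± 125 CPM for SF_CD, and cyclin B1 (Ccnb1) averaged 192 ± 71.7 CPM against 236 ± 123 CPM. In the deeper libraries both separated. Birc5 was at 274 to 371 CPM in SF_CD 2 to 4 and 119 to 205 CPM in SF_HFD 1 to 4. Ccnb1 was at 244 to 367 CPM and 133 to 220 CPM. In the shallow SF_CD 1, SF_CD 5 and SF_HFD 5, Birc5 was at 58.4, 160 and 346 CPM and Ccnb1 at 49.4, 199 and 304 CPM. Cdkn1a and 15 of these 22 genes had a negative log2 fold change, none past the threshold with edgeR.

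Near relatives of the 10 genes were compared last. Of 18, 14 were tested and edgeR called 0, with 3 at an unadjusted p under 0.05 (11.6% of all genes tested). DESeq2 and limma-voom called 1 each (2.53% and 1.43% of all genes tested). The median log2 fold change was -0.02, and 0.34 without the 3 shallow libraries. Btg1, the closest relative of Btg2, averaged 123 ± 37.0 CPM for SF_HFD against 428 ± 669 CPM for SF_CD. SF_CD 1 alone reached 1621 CPM, and without it the SF_CD libraries averaged 130.1 CPM. SF_CD 5, at 209 CPM, was the next highest, so the libraries highest for Btg1 were also the highest for Btg2. Phlda1 averaged 92.3 ± 42.2 CPM for SF_HFD against 181 ± 105 CPM for SF_CD, opposite in direction to Phlda3 (edgeR adjusted p = 0.409 for both). Zmat2 averaged, in the same order, 128 ± 18.9 CPM and 181 ± 60.7 CPM, and the cyclin Ccni 68.6 ± 29.2 CPM and 61.0 ± 39.0 CPM. Ccni was at 121 and 79.2 CPM in the shallow SF_CD 1 and 5, and 29.4 to 42.0 CPM in SF_CD 2 to 4. SF_HFD 1 to 4 were above the latter, at 44.7 to 109 CPM. Zmat2 was at 163 to 181 CPM in SF_CD 2 to 4 and 110 to 157 CPM in SF_HFD 1 to 4.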

How the data were processed

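The authors deposited whole-number estimated counts, 1 row per gene and 1 column per library, made with Salmon 1.3.0 on mm10 according to the tools and builds listed per the submitters' processing notes. How transcripts were summed to genes is not given in the sources used here. Columns were matched to samples by the library name in the labels. Counts of the 5 SF_CD and 5 SF_HFD libraries were fitted with edgeR 4.0.16 (R 4.3.3; quasi-likelihood test, robust, TMM, filterByExpr, Benjamini-Hochberg, threshold 0.05). Nothing in the labels ties libraries to animals or cultures. The p-values therefore rest on differences among libraries that may be technical. All columns differed from each other. Depth is given in the report. CPM are TMM-normalised; 3 counts are 0.226 to 6.73 CPM, and intervals and floors cover counting error only. Each standard error is the log2 fold change divided by the root of its F statistic. The fit was checked on simulated counts. DESeq2 1.42.0, limma-voom 3.58.1 with quality weights, 2 other normalizations, 2 other filters, a replicate block and fits with libraries left out served as alternatives. Coordinates and exon lengths are from GENCODE M21 (mm10), which holds 94.7% of the row identifiers. The rule for named genes took all 10 genes and, from each list, up to 4 called genes or, with none, the 4 most abundant. The genes and the gene lists, written from general knowledge, were chosen with earlier results of these data known. Results for some listed genes are not reported here. For 2 of the 10 genes no promoter sequence was used here.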

Additional observations from a re-analysis of the deposited data

Results flagged for a closer look

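Among the 20 groups of 5 libraries (10 genes in 2 diets), 1 held a library far from the other 4 by Dixon's test at its 95% critical value, and chance gives about 1 in 20 such groups. Mdm2 was at 47.1 CPM in SF_CD 1, and the next SF_CD library was at 14.3 CPM. The value rests on 21 counts in a library of 499774 with 21.99% ribosomal RNA and 12.1% Malat1. Their part in the Mdm2 value was not tested.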

How the results depend on the processing

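The 38 genes called over the whole table became 78 without the low-count filter, 10 with the stricter filter, 298 with DESeq2, 168 with limma-voom and 22 with the replicate block, and 16 to 88 when a single library was left out. Of the 10 genes described, 0 were called by edgeR under RLE or upper quartile normalization, either filter, the replicate block or without the 3 libraries under 1000000 counts, and by limma-voom. The count was 1 with DESeq2 and 0 to 1 when a library was left out, the 1 being Btg2 each time (adjusted p = 0.00722 with DESeq2, and edgeR adjusted p = 0.0323 and 0.0459 without SF_CD 2 and SF_CD 3). Not all 10 genes were tested in each setting. Trp53, Zmat3 and Bbc3 had too few counts for the stricter filter. Bbc3 was also not tested with DESeq2, with limma-voom or without the 3 shallow libraries. The log2 fold changes of Trp53, Cdkn1a, Ccng1, Btg2 and Phlda3 kept their direction in all 17 or 18 settings. That of Mdm2, -0.04 with all libraries, was 0.018 without the filter, 0.43 with limma-voom, 0.12 with the replicate block, 0.41 without the 3 shallow libraries, 0.47 without SF_CD 1 and 0.06 without SF_HFD 1, and its cause was not tested. Over single libraries left out it ran from -0.23 to 0.47. That of Pmaip1 ran from -0.86 to 0.057, the last without SF_CD 1. Bax was at -0.23 with limma-voom and -0.11 without the 3 shallow libraries, and Zmat3 at 0.25 and 0.32. The setting without these 3 libraries for groups that do not overlap was chosen after seeing the data. Same-numbered libraries deviated together with correlations of -0.21 to 0.14, so the numbers were not taken as pairs and the block is only an alternative. Depth limits Trp53, Bbc3, Ccng1, Phlda3 and Zmat3 in the shallow libraries, where they rest on 0 to 7 counts, except Ccng1 and Phlda3 in SF_HFD 5 (23 and 10).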
